A study of Mus musculus with 2 samples.

Results

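The genes described here handle iron in the adult mouse striatum. They are *Trf*, *Tfrc*, *Steap3* and *Slc11a2* for iron uptake, *Fth1* and *Ftl1* for storage, *Slc40a1* and *Cp* for export, and *Hmox1* for the release of iron from haem. They were chosen by gene symbol as 9 of the 32285 genes counted in each library, and each symbol matched 1 row in both libraries. Cells were dissociated from the striatum of untreated adult mice and sequenced by single-cell RNA sequencing (scRNA-seq) on the 10x Genomics platform, in which each captured mRNA molecule carries a unique molecular identifier (UMI). The 2 libraries used here, replicates 1 and 2, belong to 1 condition, so every comparison below is between cell classes within the libraries. The labels give an age of 8 to 10 weeks, no treatment, the strain C57/Bl6J and the cell type "Glia enriched", whereas the protocol text names C57BL/6NTac mice and the study's texts give slightly different ages. No transgene or deletion is named for these mice. The labels state neither whether mice were pooled nor whether the libraries came from separate mice, so the p-values cannot be taken to measure the spread between mice. They rest on how much differences between classes varied between these 2 libraries, after the overall difference between libraries was removed. That spread is shared by all classes of a fit and is drawn towards a trend over all genes. A p-value therefore does not measure the spread of a single gene alone. Before loading, the suspension was filtered and treated with a kit that removes myelin debris.

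Cells take up most of their iron bound to transferrin (*Trf*) through the transferrin receptor (*Tfrc*). Inside the endosome the iron is reduced by a ferrireductase such as STEAP3 and leaves through the transporter DMT1 (*Slc11a2*). Iron that is not used is stored in ferritin, a shell built from heavy chains (*Fth1*), which oxidize iron, and light chains (*Ftl1*), which help to form the mineral core. Iron leaves cells through ferroportin (*Slc40a1*), and the ferroxidase ceruloplasmin (*Cp*) oxidizes it for loading onto transferrin, while haem oxygenase 1 (*Hmox1*) frees iron from haem. In the brain, iron crosses the endothelium of the blood–brain barrier, and oligodendrocytes, which make myelin, are known as the cells richest in iron.

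Several of these mRNAs carry an iron-responsive element (IRE), a short hairpin with a CAGTGN loop that is bound by iron regulatory proteins when iron is scarce. In a 5′ untranslated region (UTR) the bound hairpin blocks translation, and in a 3′ UTR it protects the mRNA from decay. A search of GENCODE transcripts on the GRCm38 assembly looked for CAGTGN within a stem of 5 pairs, G–T pairs allowed, with a C just before the stem. Whether that C was unpaired was not checked. Such hairpins were found in the UTRs of 4 of the 9 genes and of 175 of 22527 protein-coding genes (0.777%). Only the transcript strand was searched. The hairpins are printed because their place in the 5′ or 3′ UTR bears on whether translation or the mRNA level can respond to iron. Each is given 5′ to 3′ on the transcript strand, 27 bases long, with the loop in capitals.
*Fth1* 5′ UTR, chr19:9982733-9982759, plus strand: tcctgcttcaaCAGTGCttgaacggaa
*Ftl1* 5′ UTR, chr7:45459780-45459806, minus strand: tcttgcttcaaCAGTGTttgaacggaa
*Slc40a1* 5′ UTR, chr1:45925466-45925492, minus strand: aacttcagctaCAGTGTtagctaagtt
*Tfrc* 3′ UTR, chr16:32631220-32631246, plus strand: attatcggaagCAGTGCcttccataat
*Tfrc* 3′ UTR, chr16:32631599-32631625, plus strand: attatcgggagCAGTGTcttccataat
*Tfrc* 3′ UTR, chr16:32631664-32631690, plus strand: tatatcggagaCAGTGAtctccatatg
*Tfrc* 3′ UTR, chr16:32631711-32631737, plus strand: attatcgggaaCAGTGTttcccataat
The *Fth1*, *Ftl1* and *Slc40a1* hairpins lie in the 5′ UTR and the 4 *Tfrc* hairpins found in the 3′ UTR. No match to these letters was found in the UTRs of *Trf*, *Steap3*, *Slc11a2*, *Cp* and *Hmox1*, which says only that this pattern is not in the transcripts searched. UMI counts measure mRNA, so regulation of translation through a 5′ hairpin would not show in the values below.

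The 2 libraries held 12415 barcodes, with 44597660 and 37982720 UMIs and medians of 3852 and 5375 UMIs per barcode, and shared 9 barcode sequences. After the filter on detected genes and removal of doublets, 12023 cells were left. Clustering, from which all iron genes and *Crym* were left out, gave 10 classes named by their markers, and every cluster that took a name had at least 6 of the markers of its class raised. The classes were 2374 oligodendrocyte-like, 2333 astrocyte-like, 2151 microglia-like, 1646 neuroblast-like, 1410 endothelial-like, 645 neuron-like, 644 oligodendrocyte precursor (OPC)-like, 554 mural-like, 169 macrophage-like and 97 erythroid-like cells. Depth differed between them, from a median of 2003 UMIs in astrocyte-like to 11994 in oligodendrocyte-like cells. Levels are given as UMIs of a gene per 1000000 UMIs of the class (CPM), first in library 1 and then in library 2. Each value sums all cells of a class in a library, so a lower level can mean fewer cells with the mRNA or less of it per cell. Erythroid-like cells, 86 in library 1 and 11 in library 2, were left out of the tests.

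All 9 genes varied between classes. Each class was compared with the mean of the other 8 fitted classes by the quasi-likelihood test of edgeR, blocked by library, and Benjamini-Hochberg adjustment over all 15264 genes tested. Of 81 such tests of the 9 genes, 62 passed an adjusted p of 0.05 (76.5%), 28 with a higher and 34 with a lower level. Of the tests of all genes 49.7% passed, 27.3% with a higher and 22.4% with a lower level. Macrophage-like cells had 6 of the 9 genes higher and none lower (32.0% of all genes passed), with a median log2 difference of 2.49 over the 9 genes against −0.27 over all genes. In neuroblast-like cells 8 genes were lower and only *Ftl1* was higher (57.7% of all genes passed; median −1.52, all genes 0.01), and in neuron-like cells 7 were lower and none higher (55.6% of all genes passed; median −2.01, all genes −0.18). The neuron-like count depended on the cells kept and on their clustering. With under 20% mitochondrial UMIs the cells were clustered anew, and the neuron-like class held 1531 cells in place of 645. In this differently composed class the difference of *Trf* turned to 1.45 (edgeR adjusted p = 8.52e-06), and those of *Fth1* and *Steap3* to 0.27 each without passing. The neuron-like call of *Fth1* was also lost with library sizes alone (−0.31, edgeR adjusted p = 0.0779). Microglia-like cells had 5 higher and 3 lower (56.4% of all genes passed), endothelial-like 4 and 2 (46.0%), and mural-like 4 and 1 (39.9%). The mural-like count depended on the cells kept and their clustering too. Without cells left unnamed at a finer clustering, described below, *Tfrc* turned to −1.35 (edgeR adjusted p = 8.35e-04). *Slc40a1* turned to −0.75 without passing, *Fth1* (0.41) and *Ftl1* (−0.36) gained calls, and *Cp* and *Steap3* stayed higher. At a clustering resolution of 0.32 *Steap3* turned to −0.27 without passing. Oligodendrocyte-like cells had 3 higher and 4 lower (58.3%), astrocyte-like 3 and 4 (54.0%), and OPC-like 2 and 5 (47.5%). The share of the 9 genes that passed was above that of all genes in each class.

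**Figure D1:**
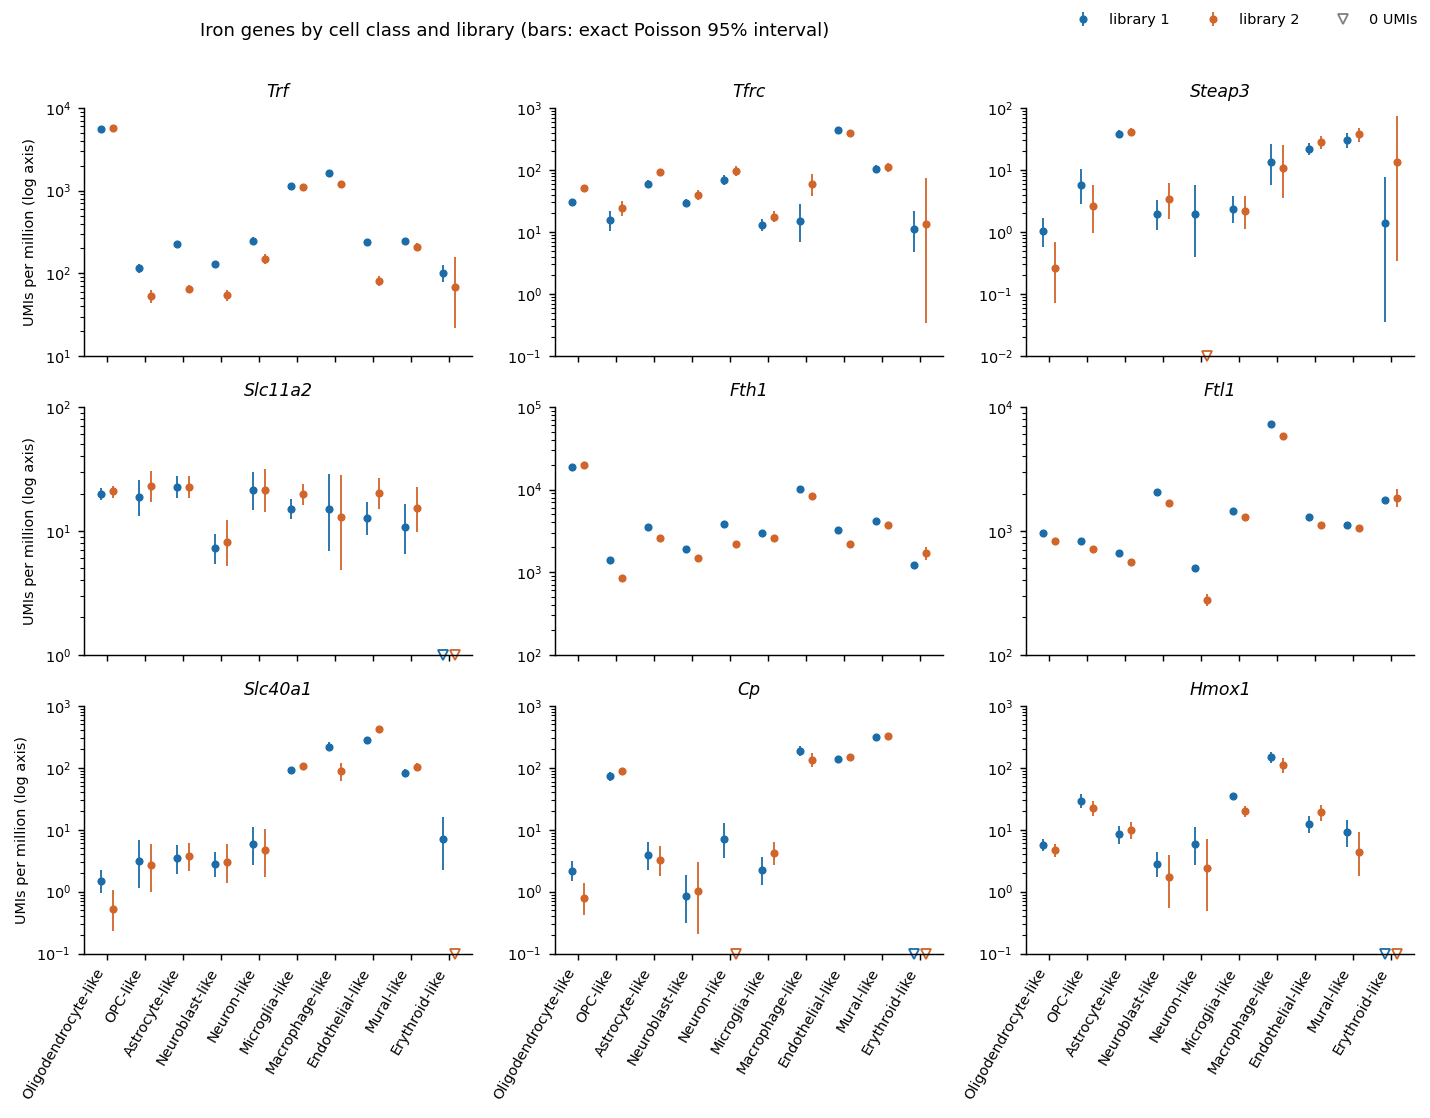
Levels of the 9 iron genes in each cell class, in CPM (log axis), 1 panel per gene and 1 colour per library; points are sums over cells, bars are exact 95% Poisson intervals for counting error, and triangles mark classes with 0 UMIs. *Trf* and *Fth1* are highest in oligodendrocyte-like cells of both libraries, *Tfrc* and *Slc40a1* in endothelial-like cells, *Ftl1* and *Hmox1* in macrophage-like cells, and *Slc11a2* differs little between classes.

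*Trf* (chr9:103204001-103230444, minus strand), which encodes the iron carrier transferrin, was highest in oligodendrocyte-like cells, at 5643 and 5806 CPM. Macrophage-like cells followed with 1647 and 1201 CPM and microglia-like cells with 1147 and 1108 CPM. The other 6 fitted classes lay between 53.2 and 249 CPM. The log2 difference from the mean of the other classes was 5.11 (SE 0.19, edgeR adjusted p = 7.68e-13) in oligodendrocyte-like, 2.49 (SE 0.22, adjusted p = 1.44e-07) in macrophage-like and 2.42 (SE 0.21, adjusted p = 4.85e-08) in microglia-like cells. Oligodendrocyte-like cells exceeded macrophage-like cells, the next in order, by 2.33 (SE 0.36, adjusted p = 4.76e-05), whereas the difference of macrophage-like from microglia-like cells, 0.06 (SE 0.35), did not pass (adjusted p = 0.945). With every cell thinned to 1000 UMIs, *Trf* was detected in 89.1% and 91.8% of oligodendrocyte-like, 66.3% and 65.2% of microglia-like and 64.4% and 48.6% of macrophage-like cells, against 5.58% to 20.4% in the other fitted classes.

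For 4 of the classes with low *Trf*, its levels are set beside those of the oligodendrocyte markers. The 4 are a selection. Mural-like cells, at 246 and 206 CPM of *Trf*, and OPC-like cells, at 115 and 53.2 CPM, had less *Trf* in library 2 too. Their summed oligodendrocyte markers are not given here. In astrocyte-like, endothelial-like, neuroblast-like and neuron-like cells *Trf* was at 130.4 to 249 CPM in library 1 and at 54.5 to 148 CPM in library 2, lower in library 2 in each class. All 10 oligodendrocyte markers had UMIs in these 4 classes, with a summed level of 1813 to 4473 CPM in library 1 and 803 to 1821 CPM in library 2, against 82053 to 87547 CPM in oligodendrocyte-like cells. In microglia-like cells, where *Trf* was far higher, that summed level was 1622 and 966 CPM, and in macrophage-like cells 1639 and 3264 CPM. The part of oligodendrocyte RNA in the low levels was not tested.

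*Tfrc* (chr16:32608920-32632794, plus strand), the transferrin receptor, was highest in endothelial-like cells, at 435 and 395 CPM. Mural-like cells held 104 and 109.9 CPM, neuron-like cells 69.8 and 96.6 CPM and astrocyte-like cells 60.5 and 91.3 CPM. Microglia-like cells had the lowest level of the fitted classes, at most 17.7 CPM in either library, and OPC-like cells held 15.6 and 24.4 CPM. The endothelial-like difference from the mean of the other classes was 3.39 on the log2 scale (SE 0.14, edgeR adjusted p = 1.65e-12), and that from mural-like cells 2.11 (SE 0.23, adjusted p = 3.02e-06). At 1000 UMIs per cell, 34.3% and 28.9% of endothelial-like cells had a *Tfrc* UMI, against at most 7.95% in any other fitted class. Oligodendrocyte-like cells, at 31.0 and 51.8 CPM, did not pass against the mean of the others (−0.03, SE 0.17, adjusted p = 0.989).

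*Steap3* (chr1:120190757-120272705, minus strand), the endosomal ferrireductase, was low in every fitted class, with 371 and 369 UMIs in the whole libraries. Astrocyte-like cells held 38.7 and 41.1 CPM, mural-like cells 30.1 and 37.5 CPM and endothelial-like cells 21.9 and 28.0 CPM. Oligodendrocyte-like cells held 1.02 and 0.266 CPM, 15 and 4 UMIs. The astrocyte-like level exceeded the mean of the other classes by 3.08 (SE 0.22, edgeR adjusted p = 5.49e-09) and did not differ from the mural-like one past the threshold (0.28, SE 0.29, adjusted p = 0.452). Fibroblast-like cells, 35 and 21 in the 2 libraries, held 76.8% and 67.8% of the *Steap3* UMIs of the mural-like class, at 240.2 and 277 CPM. The mural-like rise of 2.77 (SE 0.28) was lost at a clustering resolution of 0.32, which separated parts of this class (−0.27, adjusted p = 0.914).

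*Slc11a2* (chr15:100387898-100425072, minus strand), the transporter that carries iron out of the endosome, had the most even level of the 9 genes. It ranged from 7.23 and 8.18 CPM in neuroblast-like to 22.7 and 22.5 CPM in astrocyte-like cells. Oligodendrocyte-like cells held 19.8 and 20.8 CPM, neuron-like cells 21.3 and 21.5 CPM and OPC-like cells 18.7 and 23.0 CPM. The gene was higher in oligodendrocyte-like cells (0.80, SE 0.12, edgeR adjusted p = 3.08e-05), astrocyte-like cells (0.48, SE 0.14, adjusted p = 0.0101) and microglia-like cells (0.51, SE 0.14, adjusted p = 0.00553), and lower in neuroblast-like cells (−1.36, SE 0.18, adjusted p = 5.73e-06). The astrocyte-like level passed against only 2 of the other 8 classes. The astrocyte-like call was lost after thinning to 1000 UMIs (0.099, adjusted p = 0.918) and with under 20% mitochondrial UMIs (0.39, adjusted p = 0.0572). Fitted differences use TMM factors (0.768 and 0.751 in oligodendrocyte-like, 1.04 and 1.03 in astrocyte-like cells), so their order can differ from that of CPM. With library sizes alone the oligodendrocyte-like rise was 0.36 (edgeR adjusted p = 0.0246). The microglia-like rise also depended on the scaling of the libraries and was 0.09 with library sizes alone (adjusted p = 0.677). It was also not called by DESeq2 (adjusted p = 0.146), after thinning (0.520) or at resolution 0.32 (0.0739).

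The storage gene *Fth1* was the most abundant of the set, with 369639 and 363771 UMIs in the whole libraries. *Trf* followed with 98411 and 99858 UMIs, and the other storage gene, *Ftl1*, with 58285 and 38203. *Fth1* (chr19:9980598-9985098, plus strand), the ferritin heavy chain, reached 18809.9 and 19762 CPM in oligodendrocyte-like cells. Macrophage-like cells held 10151 and 8457 CPM, mural-like cells 4202 and 3757 CPM, and OPC-like cells, the lowest fitted class, 1421 and 849 CPM. Every fitted class had *Fth1* UMIs in at least 91.6% of its cells. The log2 difference from the mean of the other classes was 3.22 (SE 0.11, edgeR adjusted p = 2.02e-13) in oligodendrocyte-like and 1.73 (SE 0.12, adjusted p = 4.23e-09) in macrophage-like cells, and these classes differed from each other by 1.32 (SE 0.18, adjusted p = 1.57e-05). It was −2.34 (SE 0.17, adjusted p = 7.33e-09) in OPC-like cells, −1.35 in neuroblast-like, −0.65 in neuron-like and −0.42 in endothelial-like cells. Astrocyte-like, mural-like and microglia-like cells did not pass.

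*Ftl1* (chr7:45457944-45459884, minus strand), the ferritin light chain, followed another order. Macrophage-like cells held 7244 and 5863 CPM and neuroblast-like cells 2063 and 1676 CPM. Oligodendrocyte-like cells, highest for *Fth1*, held 960.2 and 827 CPM, and neuron-like cells had the lowest level, 498 and 278 CPM. Macrophage-like cells exceeded the mean of the other classes by 2.99 (SE 0.09, edgeR adjusted p = 1.67e-13) and neuroblast-like cells, the next in order, by 2.10 (SE 0.16, adjusted p = 1.94e-08). Microglia-like cells were higher (0.71, SE 0.11) and astrocyte-like (−1.08, SE 0.13), OPC-like (−1.10, SE 0.13) and neuron-like cells (−2.13, SE 0.14) were lower than the mean. The oligodendrocyte-like difference was 0.04 (SE 0.11, adjusted p = 0.880), and −0.41 with library sizes alone (adjusted p = 0.00762). A related row, *Ftl1-ps1*, held 435 and 351 UMIs against 58285 and 38203 of *Ftl1*, and reads of near-identical copies may have been split between such rows.

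The ratio of *Fth1* to *Ftl1* UMIs, compared between classes only, therefore differed widely. It was 19.6 and 23.9 in oligodendrocyte-like cells, 7.63 and 7.94 in neuron-like cells and 5.35 and 4.61 in astrocyte-like cells. It was 1.40 and 1.44 in macrophage-like and 2.04 and 2.00 in microglia-like cells, and in neuroblast-like cells, summed over the class, light chain UMIs outnumbered heavy chain UMIs, at 0.929 and 0.889. This value was carried by a portion of the class. At the finer clustering the ratio was 0.866 and 0.705 in cycling progenitor-like cells and 0.626 and 0.526 in a postmitotic neuroblast-like cluster of 474 cells, whereas a shallower postmitotic cluster of 554 cells (median 1147.5 UMIs, against 5777) had 4.24 and 3.52 and ependymal-like cells 2.46 and 2.61. The ratio of smooth muscle-like cells was 13.2 and 13.3, whereas pericyte-like cells of the same mural-like class had 2.65 and 2.13. The ranges over the 2 libraries did not overlap between these 6 broad classes, but this did not hold for all fitted classes. The ratio of OPC-like cells, 1.71 and 1.20, overlapped with the macrophage-like range. That of endothelial-like cells, 2.49 and 1.94, overlapped with the microglia-like range, whereas mural-like cells, at 3.79 and 3.59, overlapped with none. No test of the ratio was run, and the ratios of other gene pairs were not examined.

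Export genes were highest in vascular and immune classes. *Slc40a1* (chr1:45908068-45926523, minus strand), the iron exporter ferroportin, was at 277 and 424 CPM in endothelial-like, 220.3 and 87.0 CPM in macrophage-like, 92.0 and 107 CPM in microglia-like and 82.7 and 104 CPM in mural-like cells. The other 5 fitted classes lay between 0.533 and 5.82 CPM, and oligodendrocyte-like cells were the lowest, with 22 and 8 UMIs. Smooth muscle-like cells, a part of the mural-like class, lay between 1.80 and 8.00 CPM, so not every part of the 4 classes stood above the other 5. The rise over the mean of the other classes was 5.01 (SE 0.19, edgeR adjusted p = 9.58e-13) in endothelial-like, 3.85 (SE 0.29) in macrophage-like and 3.34 (SE 0.21) in microglia-like cells, and oligodendrocyte-like cells were lower by −4.05 (SE 0.40, adjusted p = 1.69e-07). Endothelial-like exceeded macrophage-like cells by 1.03 (SE 0.31, adjusted p = 0.0180), a call that was not made by DESeq2 (adjusted p = 0.174), and the macrophage-like libraries were far apart.

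The mural-like levels of *Slc40a1* and *Tfrc* came from few cells. A cluster of 29 and 35 cells in the 2 libraries, part of the mural-like class but unnamed at the finer clustering, had 10 of 10 endothelial and 7 of 10 mural markers raised and a median of 15161.5 UMIs. It held 90.9% and 96.3% of the *Slc40a1* UMIs and 88.1% and 85.0% of the *Tfrc* UMIs of the mural-like class. Its levels were 258 and 306 CPM of *Slc40a1*, against 11.6 and 8.40 CPM in pericyte-like cells, and 313 and 284 CPM of *Tfrc*, against 21.3 and 19.6 CPM. The summed level of the 10 endothelial markers was 30650 and 32693 CPM in it and 1211 and 1291 CPM in pericyte-like cells, and that of the 10 mural markers 14056 and 16290 CPM against 36773 and 41356 CPM. Without all cells that were unnamed at the finer clustering (a setting added once the data had been seen), the mural-like difference of *Tfrc* turned from 1.02 (SE 0.18) to −1.35 (SE 0.27, edgeR adjusted p = 8.35e-04) and that of *Slc40a1* from 2.72 (SE 0.25) to −0.75 (adjusted p = 0.244). Whether these droplets held an endothelial and a mural cell together was not tested.

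*Cp* (chr3:19957054-20009145, plus strand), the ferroxidase ceruloplasmin, was highest in mural-like cells, at 317 and 321 CPM. Macrophage-like cells held 189 and 133 CPM, endothelial-like cells 141 and 149.6 CPM and OPC-like cells 73.1 and 87.3 CPM. The other 5 fitted classes lay between 0 and 7.11 CPM. Log2 differences from the mean were 4.88 (SE 0.19, edgeR adjusted p = 1.73e-12) in mural-like, 4.04 (SE 0.28) in macrophage-like, 3.74 (SE 0.20) in endothelial-like and 2.29 (SE 0.24, adjusted p = 6.27e-07) in OPC-like cells. Mural-like cells exceeded 7 of the 8 other classes, and their difference from macrophage-like cells, 0.74 (SE 0.29), missed the threshold (adjusted p = 0.0653). Within the mural-like class, pericyte-like cells held 567 and 557 CPM, fibroblast-like cells 592 and 969 CPM and smooth muscle-like cells 46.4 and 72.0 CPM. Astrocyte-like cells, a known source of ceruloplasmin in the brain, held 3.89 and 3.25 CPM, 17 and 14 UMIs.

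*Hmox1* (chr8:75093621-75100589, plus strand), the inducible haem oxygenase, was highest in macrophage-like cells, at 149 and 111 CPM. Microglia-like cells held 34.7 and 19.9 CPM, OPC-like cells 29.6 and 22.2 CPM and endothelial-like cells 12.4 and 19.1 CPM. All other fitted classes were below 10 CPM in both libraries. Macrophage-like cells exceeded the mean of the other classes by 4.05 (SE 0.24, edgeR adjusted p = 5.87e-10) and microglia-like cells, the next in order, by 2.04 (SE 0.27, adjusted p = 3.98e-05). Microglia-like (1.75, SE 0.19) and OPC-like cells (0.81, SE 0.24, adjusted p = 0.0105) were also higher than the mean, and neuroblast-like (−2.75), neuron-like (−2.01), mural-like (−0.98) and oligodendrocyte-like cells (−0.89) lower. Thinning to 1000 UMIs lost the calls of OPC-like (adjusted p = 0.276), mural-like (0.374), oligodendrocyte-like (0.306) and neuron-like cells (0.254). The OPC-like call was also lost with under 20% mitochondrial UMIs (adjusted p = 0.0526). The mural-like call was also lost with library sizes alone (adjusted p = 0.0548) and without the library block (0.0649).

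**Figure D2:**
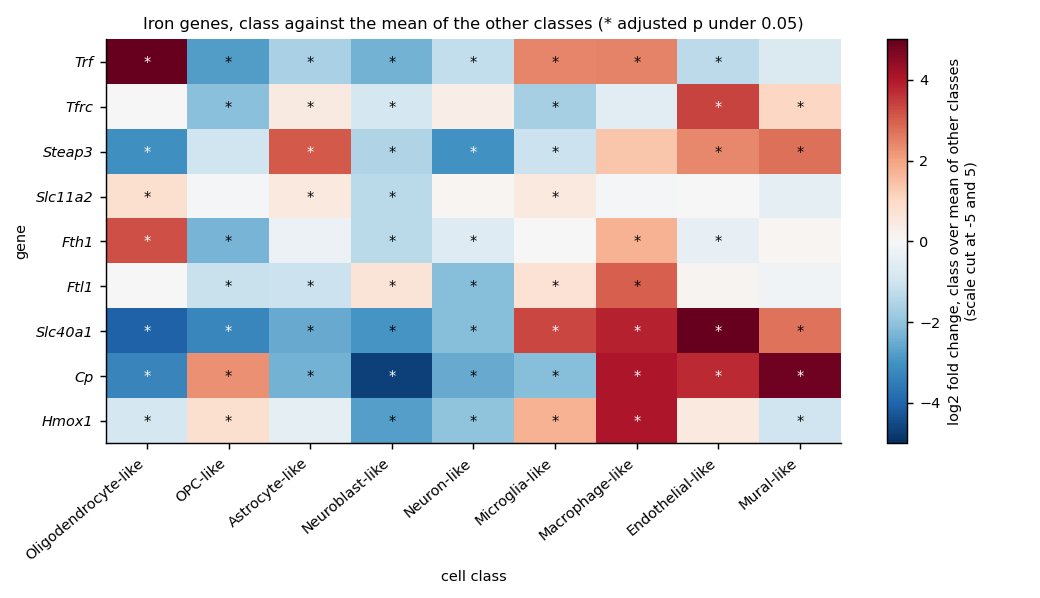
Log2 difference of each class from the mean of the other 8 fitted classes for the 9 iron genes, as a colour scale, with a star where the edgeR adjusted p was under 0.05. *Trf* in oligodendrocyte-like cells (5.11) and *Slc40a1* in endothelial-like cells (5.01) are the highest values, and *Cp* in neuroblast-like cells (−4.66) is the lowest.

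Comparison of all 36 pairs of the 9 classes called 231 of 324 tests of these genes (71.3%), against 50.7% of the tests of all genes. Of the 9 genes, 6 differed between their highest class and the next one, namely *Trf*, *Tfrc*, *Fth1*, *Ftl1*, *Slc40a1* and *Hmox1*, and each of these was also higher there than in all 8 other classes. The highest class was picked from the same levels that were then tested. The share of all genes that would pass such a test was not counted, so this count has no background. For *Steap3*, *Slc11a2* and *Cp* the order at the top was not resolved. The highest class was the same in both libraries for each gene except *Slc11a2*, for which OPC-like cells led in library 2 (23.0 against 22.5 CPM in astrocyte-like cells).

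Erythroid-like cells, marked by haemoglobin genes, held no UMI of *Cp*, *Slc11a2* or *Hmox1* in either library, which allows up to 5.16 CPM in library 1 and 50.1 CPM in library 2 for each (exact Poisson 95% bound, counting error only). They held 1775 and 1848 CPM of *Ftl1*, 1214 and 1699 CPM of *Fth1* and 11.2 and 13.6 CPM of *Tfrc*, the receptor that red cell precursors use for iron uptake and lose as they mature.

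The oligodendrocyte lineage was resolved further at a finer clustering, which separated 644 OPC-like, 184 differentiating oligodendrocyte-like and 2214 mature oligodendrocyte-like cells. *Trf* was at 115 and 53.2 CPM in OPC-like, 198 and 255 CPM in differentiating and 6155 and 6185 CPM in mature cells. *Fth1* was at 1421 and 849, then 1498 and 1361, and then 20443 and 21019 CPM. For both genes the larger step was between differentiating and mature cells. It was 5.25 for *Trf* (SE 0.50, edgeR adjusted p = 7.70e-09) and 4.35 for *Fth1* (SE 0.26, adjusted p = 2.84e-12) on the log2 scale. Between OPC-like and differentiating cells the differences were smaller and also passed, at 1.83 (SE 0.47, adjusted p = 0.00394) and 0.64 (SE 0.23, adjusted p = 0.0343). Both calls were lost without the library block (1.70 with adjusted p = 0.0520, and 0.61 with adjusted p = 0.151). With library sizes alone the *Trf* call was kept (1.56, adjusted p = 0.0118) and that of *Fth1* was lost (0.36, adjusted p = 0.215).

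*Cp* moved the other way. It fell from 73.1 and 87.3 CPM in OPC-like cells to 3.09 and 5.21 CPM in differentiating cells (−4.03, SE 0.57, edgeR adjusted p = 6.51e-06) and was at 2.30 and 0.498 CPM in mature cells. *Hmox1* was at 29.6 and 22.2, then 18.5 and 13.6, and then 4.53 and 4.13 CPM, and was lower in mature than in OPC-like cells (−1.80, SE 0.31, adjusted p = 2.82e-05). *Tfrc* rose from 15.6 and 24.4 CPM in OPC-like to 32.4 and 52.6 CPM in mature cells (1.83, SE 0.26, adjusted p = 2.43e-06). *Ftl1* changed less, from 829 and 708 CPM over 1392 and 1085 CPM to 917 and 809.9 CPM, and its rise from OPC-like to mature cells (0.93, SE 0.18) was lost with library sizes alone (0.17, adjusted p = 0.423). In all, 8 of 9 genes passed between mature and OPC-like cells (52.4% of all genes), 4 of 9 between mature and differentiating cells (36.5%) and 4 of 9 between differentiating and OPC-like cells (30.9%). In the first of these comparisons library sizes alone moved the median of all genes by −0.73 relative to TMM factors, and the *Slc11a2* difference of 0.73 (SE 0.23, adjusted p = 0.0110) was then −0.02. In the second, library sizes alone lost the *Tfrc* call (1.11 with TMM factors, then 0.62, adjusted p = 0.0872). They added a lower *Ftl1* in mature cells (−0.51, adjusted p = 0.0206).

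**Figure D3:**
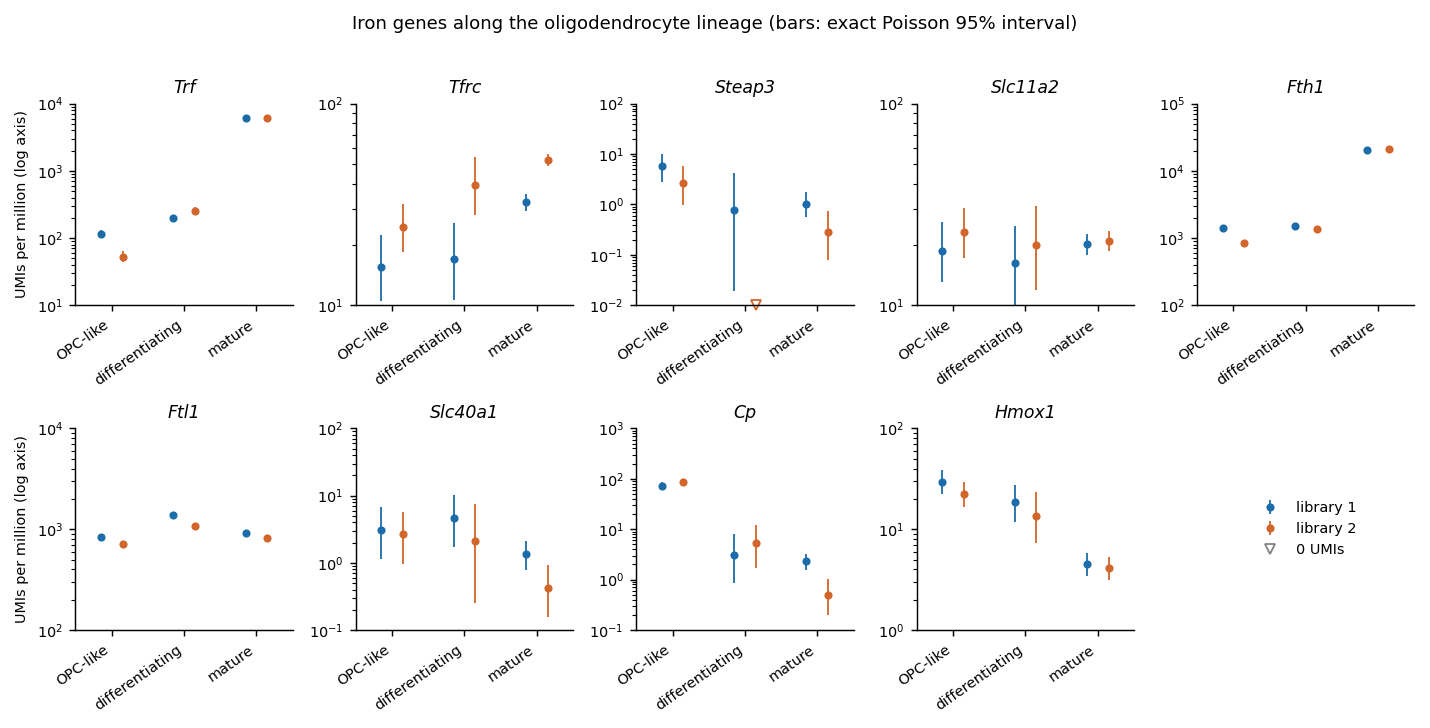
Levels of the 9 iron genes in OPC-like, differentiating and mature oligodendrocyte-like cells of each library, in CPM (log axis), with exact 95% Poisson intervals. *Trf* and *Fth1* rise most between differentiating and mature cells, and *Cp* falls between OPC-like and differentiating cells.

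Mature oligodendrocyte-like cells were themselves uneven. They formed 4 clusters at the finer resolution, which were defined by their other genes and are described without a test. A cluster of 395 cells led by *Klk6*, *Anln*, *Hapln2* and *Apod* held 9856 and 9289 CPM of *Trf* and 31233 and 30941 CPM of *Fth1*. The largest, with 838 cells, held 6000.2 and 6267 CPM of *Trf* and 21712 and 21951 CPM of *Fth1*. A cluster of 264 cells held 2355 and 2298 CPM of *Trf* and 11226 and 10341 CPM of *Fth1*. Both genes thus had the same order over these 3 clusters in both libraries, while *Ftl1* stayed between 795 and 1039 CPM. The remaining 717 cells were shallow, with a median of 2510 UMIs and a median mitochondrial share of 22.3%, and had 8114 and 7845 CPM of *Fth1* but 5826 and 6597 CPM of *Trf*.

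Macrophage-like and microglia-like cells, both immune cells of the brain, differed in 6 of the 9 genes at the finer clustering, all higher in macrophage-like cells, whereas 15.7% of all genes passed and 5.20% were higher. *Cp* was at 226 and 193 CPM in macrophage-like and 2.24 and 4.20 CPM in microglia-like cells (5.85, SE 0.43, edgeR adjusted p = 5.89e-10). *Hmox1* (2.38, SE 0.29), *Ftl1* (2.30, SE 0.19), *Fth1* (1.72, SE 0.23), *Steap3* (2.45, SE 0.71, adjusted p = 0.0183) and *Tfrc* (1.28, SE 0.38, adjusted p = 0.0222) were the others. The last of these rested on 9 and 25 macrophage-like UMIs and was lost without the library block (adjusted p = 0.0918), and that of *Steap3* rested on 7 and 5. *Trf*, *Slc40a1* and *Slc11a2* did not pass between these classes. For *Slc40a1* this depended on the scaling, at 0.77 (edgeR adjusted p = 0.0748) with TMM factors. With library sizes alone it passed as higher in macrophage-like cells (0.99, edgeR adjusted p = 0.0226).

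In the vessel wall, smooth muscle-like and pericyte-like cells differed in 3 of 9 genes (16.0% of all genes). *Fth1* was higher in smooth muscle-like cells, at 6666 and 5989 CPM against 3124 and 2241 CPM (1.59, SE 0.23, edgeR adjusted p = 1.56e-05). *Ftl1* was lower, at 504 and 449.9 CPM against 1179.7 and 1050.3 CPM (−0.89, SE 0.19, adjusted p = 0.00162), and *Cp* was lower by −2.93 (SE 0.37, adjusted p = 2.45e-06). Heavy and light ferritin chains thus differed in opposite directions between these cells. Fibroblast-like cells, 56 in all, held 821 and 1655 CPM of *Trf*, and the 10 oligodendrocyte markers, all with UMIs, summed to 3815 and 8662 CPM in them. The part of oligodendrocyte RNA in this *Trf* level was not tested. Between cycling progenitor-like and postmitotic neuroblast-like cells edgeR called 0 of 9 genes, with 0 at an unadjusted p under 0.05 and 0 by DESeq2, against 28.2% of all genes. Without the filter on low counts 1 gene was called, and 2 had an unadjusted p under 0.05. With doublets kept, at least 500 detected genes or thinning, 1 gene had such a p and 0 were called. The postmitotic class holds both clusters with the unlike *Fth1* to *Ftl1* ratios given above.

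Within astrocyte-like cells the study's own contrast is that of cells with and without the μ-crystallin gene *Crym*. Of the 9 genes, 5 were detected in enough cells to be tested, and 1 passed (6.55% of all 6060 genes tested). *Trf* was at 141 and 61.0 CPM in *Crym*+ cells and 318 and 69.0 CPM in *Crym*- cells (−0.85, SE 0.15, edgeR adjusted p = 9.13e-04). The difference was large in library 1 and small in library 2. The SE does not measure this gap, because the fit draws the spread of each gene towards a trend over all genes. All 10 oligodendrocyte markers had UMIs in each group, and their summed level was 2178 and 1010.1 CPM in *Crym*+ and 4394 and 1126 CPM in *Crym*- cells. At the finer clustering 1205 of the 1349 astrocyte-like cells in library 1 and 971 of the 984 in library 2 kept that name. Among the rest, 112 were named neuron-like, 22 ependymal-like and 21 mature oligodendrocyte-like. The part of oligodendrocyte RNA or of these cells in the *Trf* difference was not tested. The call was not made by DESeq2 (adjusted p = 0.999), after thinning to 1000 UMIs (−0.18, adjusted p = 0.582) or without the library block (adjusted p = 0.887). *Fth1* (−0.06, SE 0.08), *Ftl1* (0.15, SE 0.09), *Steap3* (0.21, SE 0.17) and *Tfrc* (−0.20, SE 0.12) did not pass.

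A list of 64 other iron genes placed these 9 in their pathway. Of these, 63 were found among the gene symbols and 53 were tested, and 254 of 477 class tests passed (53.2%), 134 higher and 120 lower, close to the 49.7% of all genes (27.3% higher, 22.4% lower). Of the 11 genes of haem synthesis and breakdown, 8 were higher and 2 lower in oligodendrocyte-like cells (all genes 35.1% and 23.2%), and 7 higher and 1 lower in microglia-like cells (34.0% and 22.5%). None was higher and 7 were lower in both neuroblast-like (31.3% and 26.3%) and neuron-like cells (25.9% and 29.8%). The median log2 differences of these 11 genes were 0.69, 0.48, −0.67 and −0.87 in these 4 classes, in that order. Library sizes alone moved the median of all genes by −0.44, −0.41, 0.15 and 0.34 relative to TMM factors. Counts by role are given with TMM factors only. Of 6 tested genes of haem and haemoglobin handling, 1 was higher and 2 were lower in oligodendrocyte-like cells, and 1 was higher and 1 lower in microglia-like cells. Of the 11 tested genes of uptake and reduction, 7 were higher and 0 lower in mural-like cells (all genes 22.8% and 17.1%), and 5 were higher and 4 lower in endothelial-like cells (26.5% and 19.4%). The mural-like class also holds the unnamed cluster with endothelial markers and the fibroblast-like cells described above. Their part in the mural-like count was not tested.

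The 3 genes with the largest rise are given for each class. In oligodendrocyte-like cells they were *Cpox*, an enzyme of haem synthesis, at 487 and 485 CPM (4.47, SE 0.12, edgeR adjusted p = 3.81e-14), *Slc48a1*, a haem transporter, at 647 and 631 CPM (3.52, SE 0.09), and *App*, the amyloid precursor protein, at 1914 and 2121 CPM (2.75, SE 0.14). In macrophage-like cells they were *Cd163*, the scavenger receptor for haemoglobin bound to haptoglobin, at 668 and 300.3 CPM (10.25, SE 0.26), *Hfe*, the gene mutated in hereditary haemochromatosis, at 314 and 161 CPM, and *Blvrb*, a biliverdin reductase, at 642 and 444 CPM. *Hfe* led in microglia-like cells too, at 143 and 130.3 CPM (4.20, SE 0.17), followed by *Slc46a1*, a transporter of folate and haem, and the metal importer *Slc39a8*.

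Endothelial-like cells were led by *Flvcr2* at 45.0 and 56.1 CPM (7.36, SE 0.47), *Slc39a8* at 101 and 146 CPM (5.93, SE 0.28) and *Lcn2*, which binds iron carriers of bacteria, at 8.58 and 3.25 CPM. In mural-like cells *Scara5*, a ferritin receptor, *Steap4*, a metalloreductase, and *Flvcr2* led, none above 22.2 CPM. The *Scara5* rise of 6.81 rested on only 5.37 and 6.35 CPM, and its size was imprecise. Its SE of 2.53 belongs to the difference before the shrinkage that edgeR applies at low counts. Astrocyte-like cells were led by the haem-binding protein gene *Hpx*, at 5.50 and 3.95 CPM, the membrane ferroxidase gene *Heph*, at 17.2 and 18.1 CPM (4.90, SE 0.47, edgeR adjusted p = 5.78e-09), and *Slc46a1*. *Heph* was thus higher than the mean in the astrocyte-like class, in which *Cp* was low. It was also higher in endothelial-like and mural-like cells, in which *Cp* was high. In OPC-like cells *Steap2*, *Lrp1* and the second transferrin receptor gene *Tfr2* led. *Tfr2* was there at only 2.07 and 3.55 CPM (1.91, edgeR adjusted p = 0.0424). Its SE of 1.53 also belongs to the difference before shrinkage and cannot be set against 1.91. In neuroblast-like cells *Steap2* and *Pcbp2* were among the 3, and in neuron-like cells *Tfr2*, at 5.82 and 1.60 CPM, *App* and *Slc39a14* led.

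**Figure D4:**
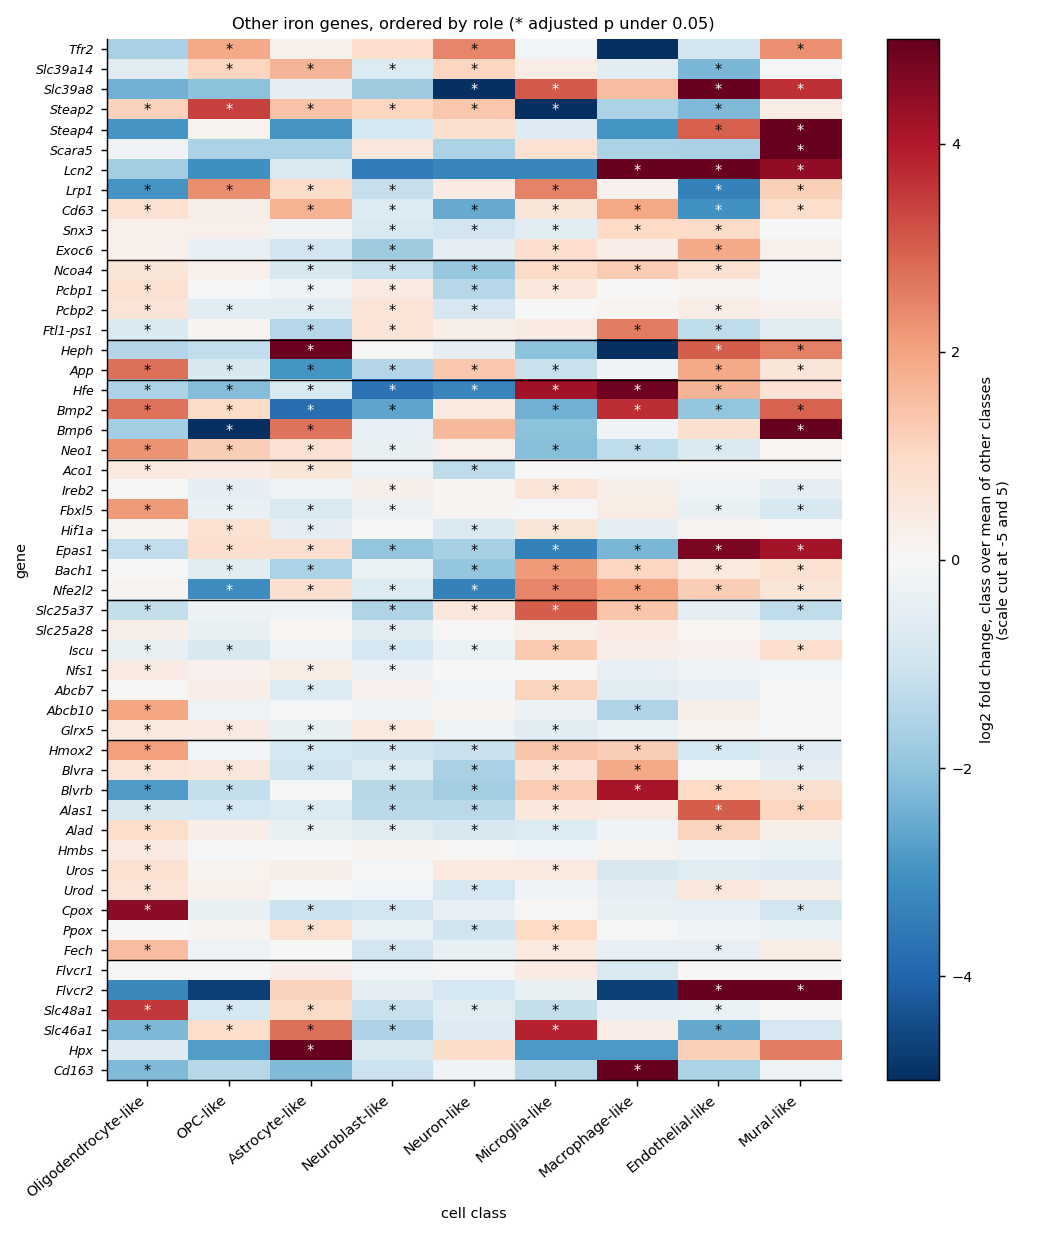
Log2 difference of each class from the mean of the other fitted classes for other iron genes tested, grouped by role, as a colour scale with a star where the edgeR adjusted p was under 0.05. With TMM factors, 8 of 11 genes of haem synthesis and breakdown are higher in oligodendrocyte-like cells (all genes 35.1%). In microglia-like cells 7 of 11 are higher (all genes 34.0%). Of the genes of haem and haemoglobin handling, 1 of 6 is higher in each of these classes. *Cd163* in macrophage-like cells (10.25) has the highest value.

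Across the 18 sums of library and class, the levels of *Trf* and *Fth1* were correlated with Pearson's r = 0.88, those of *Ftl1* and *Hmox1* with r = 0.72 and those of *Slc40a1* and *Cp* with r = 0.66, on log2(CPM + 10). These are descriptions over sums that share libraries and depth. Among 8541 genes, those most like *Trf* were *Cd82*, *Evi2a* and *Bin1* (r = 0.95, 0.94 and 0.94), and those most like *Tfrc* were *Nxpe4*, *Sptbn1* and *Arhgef15* (r = 0.93, 0.90 and 0.90). The others were *Cpt1a*, *Cdc42ep4* and *Acaa2* for *Steap3*, *Clptm1*, *Lmbrd1* and *Tex264* for *Slc11a2*, *Slc4a2*, *Rftn1* and *Arrdc2* for *Fth1*, *Rbpj*, *Rps14* and *Rpl36* for *Ftl1*, *Srgn*, *Ifih1* and *Grap* for *Slc40a1*, *Stom*, *Tagln2* and *Itga4* for *Cp*, and *Snx2*, *Mfsd1* and *Uap1l1* for *Hmox1*.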

How the data were processed

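Glia-enriched cells of adult mouse striatum were profiled as 2 scRNA-seq libraries on the 10x Genomics platform. The authors deposited raw UMI counts per gene and cell, made with Cell Ranger on mm10 and not normalized; the submitters' processing notes name version 4.0, and the study's methods another version. The label names kits v2 and v3 without saying which library used which. Sequencing depth and cell numbers per class set the counting error, and intervals cover counting error only.

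Tables were handled in python 3.11.15 (pandas 2.3.3, scipy 1.17.1, numpy 2.4.6), and a minimum of 300 detected genes was set per cell. With 6% as the expected rate, Scrublet (scanpy 1.11.5) marked 1.17% and 2.95% of cells as doublets, which were removed. Seurat 5.3.0 in R 4.3.3 integrated the libraries by canonical correlation analysis on 2000 variable genes and clustered cells on 30 components by the Louvain method at resolutions 0.08 and 1, after 73 genes (all iron genes listed and *Crym*) had been left out of the variable genes. A cluster took a class name when at least 3 and at least 50% of its markers were raised 2-fold, with 10 CPM added, and 1 was among the 50 leading genes. UMIs were summed per library and class and fitted in edgeR 4.0.16 (TMM, filterByExpr, quasi-likelihood test, library as block) for classes that held 20 or more cells in both libraries, with Benjamini-Hochberg adjustment over all genes of a comparison at 0.05. The block follows from the design, since all classes in a library share 1 suspension. Printed edgeR differences are shrunk slightly at low counts. Each SE is the difference before shrinkage divided by the square root of the F statistic. At low levels an SE therefore does not match its printed difference. *Crym*+ cells had a natural log value above 0.25 after scaling to 10000 UMIs, and genes detected in at least 10% of either group were tested there. Thinned values drew 1000 UMIs per cell without shallower cells. The script was tested on simulated data.

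The text names all 9 genes, for each class the 3 other iron genes with the largest rise among those past the threshold and higher in both libraries, for each of the 9 the 3 genes most correlated with it over the sums among genes with at least 50 CPM in 1 sum, and marker genes. A gene named by this rule and a marker gene are not reported here. The members and lists were chosen with earlier results of these data known. Alternatives were DESeq2 1.42.0, library sizes alone, no block, no filter on low counts, adjustment over all comparisons, resolutions 0.32 and 0.6, doublets kept, at least 500 genes, under 20% mitochondrial UMIs, thinning, a *Crym* threshold of 1 UMI, and each library alone. One alternative was added after seeing the data. Figures were drawn with matplotlib 3.10.9.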

Additional observations from a re-analysis of the deposited data

How the results depend on the processing

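The count of class tests called among the 9 genes was 62 and ranged from 47 (thinned to 1000 UMIs) to 67 (no filter on low counts), that of the finer pairs was 25 and ranged from 20 to 29, and that of genes called between highest and next class was 6 and ranged from 5 to 7. Without the library block, which pairs the classes of 1 suspension, these counts were 58, 22 and 6, and that of the other iron genes was 240 in place of 254. Thinning lowered the last to 150. The *Crym* comparison called 1 gene, and 0 under DESeq2, thinning, no replicate block and resolution 0.32, where 0, 0, 0 and 1 gene had an unadjusted p under 0.05. The highest class was the same for 9 genes without library 2 and for 8 without library 1.

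Directions that reversed, where the difference passed in the main or the other setting, are given as log2 differences. At resolution 0.32 the mural-like differences were −1.03 for *Tfrc*, −0.66 for *Slc40a1* and −0.27 for *Steap3*, and the oligodendrocyte-like one was 0.42 for *Tfrc*; without cells unnamed at the finer clustering the mural-like values were −1.35 for *Tfrc* and −0.75 for *Slc40a1*. With under 20% mitochondrial UMIs, where cells were clustered anew, the neuron-like differences were 1.45 for *Trf*, which passed, 0.27 for *Steap3* and 0.27 for *Fth1*. With library sizes alone they were −0.39 for *Fth1* in microglia-like and −0.41 for *Ftl1* in oligodendrocyte-like cells, and −0.024 for *Slc11a2* between mature and OPC-like cells. After thinning *Steap3* was at 0.058 in microglia-like cells and 0.0097 between mature and OPC-like cells. With 1 library left out *Slc11a2* ranged from −0.022 to 0.107 in microglia-like cells and from −0.099 to 0.0716 between mature and OPC-like cells. The cause was not tested. Of the other values of single genes, 1673 counted as unchanged, 55 lost and 52 gained a call, and 10 without a test moved by more than the spread between libraries. Unchanged values kept direction and side of the threshold, or passed in neither setting whatever their direction. Those without a test stayed within that spread.

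The alternative that adds erythroid-like cells to the fit was not run, since library 2 held 11 of them. With 2 libraries, levels of a few UMIs, as for *Steap3* in oligodendrocyte-like or *Tfrc* in macrophage-like cells, are imprecise, and differences of genes at such levels were not detectable after thinning.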
